A study of Mus musculus with 1 sample.

Results

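The myosin genes were described in RNA sequencing of 1 culture of mouse fibroblasts. They were taken as every row of the deposited table whose symbol begins with Myh (heavy chains), Myl (light chains) or Myo (unconventional heavy chains) followed directly by a digit, which gave 49 of 23386 genes: 14 Myh, 11 Myl and 24 Myo genes. By its labels the culture was grown out in vitro from normal pancreas of a mouse of mixed C57BL/6 and BALB/c background whose listed alleles include tf1acre- (a Cre-negative animal) and Tgfrb2flox/flox (floxed alleles), and its cells are called normal fibroblasts. The series was designed to compare such cells with fibroblasts cultured from pancreas tumours. Only this library was analysed here, so levels within it are given and no difference between conditions was tested. The header of its value column is a CAF code, at odds with that label, and the sample is therefore called the library labelled normal fibroblast.

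Myosins are motors that pull on actin filaments with energy from ATP. Conventional myosins, of class II, join a pair of heavy chains with regulatory light chains and with essential light chains, which stiffen the lever arm. In non-muscle and smooth muscle myosin, phosphorylation of the regulatory chains by myosin light chain kinase and other kinases switches on filament assembly and contraction. Non-muscle, smooth muscle, cardiac and skeletal heavy chains are separate genes. Unconventional myosins do not form muscle-type filaments; they tether membranes, carry vesicles or work at the tips of actin protrusions. In fibroblasts, non-muscle myosin II powers stress fibres and matrix contraction.

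The library held 52494688 reads, so that 1 read was 0.0190 CPM (reads per 1000000 reads in the table). Intervals are 95% exact Poisson intervals, or exact Clopper-Pearson intervals for shares, and cover counting error only, since there was no replicate. Fold ratios between genes are given per length, as CPM per kilobase of transcript. Ranks by reads, shares of reads, marker ranges, list medians and counts above the coding median are not divided by length unless stated. The 10 fibroblast markers ran from Fap at 0.552 CPM to Col1a2 at 3021 CPM (median 663 CPM). The 8 leukocyte markers lay between 0.0571 and 0.933 CPM and the 8 epithelial markers between 0.324 and 11.8 CPM. All 10 fibroblast markers, all 8 epithelial markers and 5 of the 8 leukocyte markers had at least 10 reads, against 67.6% of all protein-coding genes. This minimum did not separate the lists. The ranges overlapped, with Fap inside the leukocyte range and Lum below Krt18 and Krt19. Above the median protein-coding gene stood 9 fibroblast markers, 3 epithelial markers and no leukocyte marker.

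The myosin genes ranged from some of the most abundant coding genes of the library to rows with a single read. They took 403827 reads, 0.769% of the library (0.767% to 0.772%). Every one of the 49 had at least 1 read, against 90.9% of the 20559 protein-coding genes, and 36 (73.5%) had at least 10 reads against 67.6%. At least 50 reads were counted for 26 (53.1%, against 57.7%), and 19 (38.8%) had at least 1000 reads, against 35.5%. At 10000 reads or more the counts were 9 members (18.4%) and 4.36% of protein-coding genes. These 9, Myh9, Myo1c, Myh10, Myl9, Myl12a, Myo5a, Myo10, Myo9b and Myo9a, held 90.0% of the myosin reads. The median member stood at 1.71 CPM, below the 4.71 CPM of the median protein-coding gene, a ratio of 0.364, and per kilobase the medians were 0.370 and 1.89 CPM. Over genes with at least 10 reads on both sides the order of the medians turned in CPM (26.5 against 21.4) but not in CPM per kilobase (5.18 against 7.57). In RNA from a whole culture, fewer cells expressing a gene and less of its RNA in each cell cannot be told apart. Just above the minimum of 10 reads were Myh6, Myh7 and Myo1g, with 11 reads each, and just below it Myh3 and Myh15, with 9 each.

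**Figure D1:**
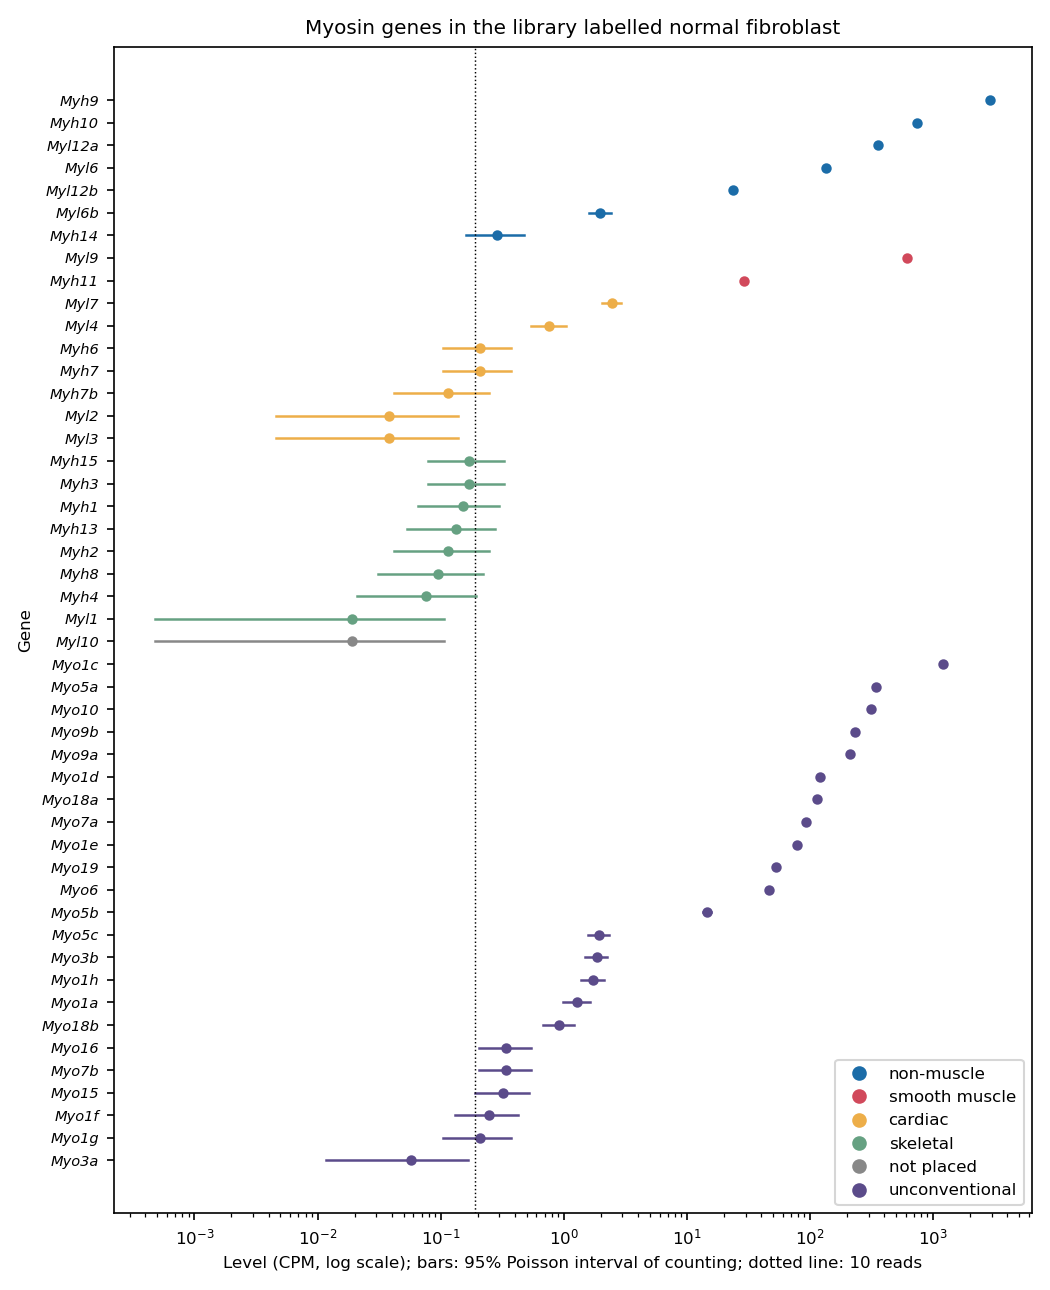
Level of 48 of the 49 myosin genes (points, CPM on a log axis) with its 95% Poisson interval (bars), grouped and coloured by class; the dotted line marks 10 reads. Non-muscle and smooth muscle genes reach from 0.286 CPM (Myh14) to 2901 CPM (Myh9), the cardiac and skeletal genes end at 2.46 CPM (Myl7), and the unconventional genes spread from 0.0571 CPM (Myo3a) to 1214 CPM (Myo1c).

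**Figure D2:**
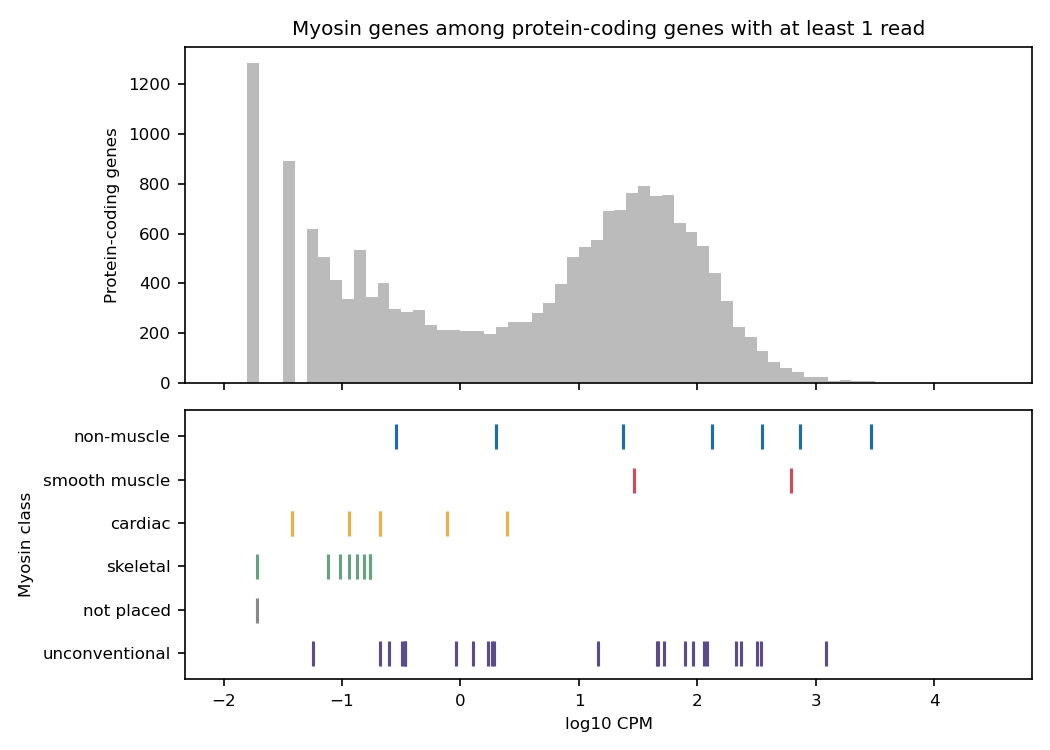
Upper panel, number of protein-coding genes with at least 1 read by log10 CPM; lower panel, 1 stroke for each myosin gene on the same axis, by class. The 19 members with at least 1000 reads lie under or beyond the broad right-hand peak of the coding genes, and the skeletal genes all lie in the left-hand part, at or below 0.171 CPM.

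Among the conventional heavy chains the non-muscle genes Myh9 and Myh10 stood far above the rest. Myh9 (GRCm38 chromosome 15, 77760587 to 77842175), the heavy chain of non-muscle myosin IIA, had 152278 reads, or 2901 CPM (2886 to 2915), and was at rank 12 by reads among protein-coding genes. Myh10 (chromosome 11, 68691559 to 68816632), the heavy chain of non-muscle myosin IIB, had 38696 reads, or 737 CPM (730 to 745), at rank 118. Myh14 (chromosome 7, 44605803 to 44670843), that of non-muscle myosin IIC, had 15 reads, or 0.286 CPM (0.160 to 0.471). Per kilobase Myh9 stood at 390 CPM, Myh10 at 94.6 and Myh14 at 0.0447, so that Myh9 was 4.12-fold (4.08 to 4.17) above Myh10. Of the reads of these 3 genes Myh9 held 79.7% (79.6% to 79.9%). Little of their sequence was shared with other genes: when each transcript was read in all its 35-base windows, 1.62% of those of Myh9 and 1.22% of those of Myh10 also occurred in transcripts of another gene.

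Smooth muscle myosin was uneven between its chains. Myl9 (chromosome 2, 156775420 to 156781658), the regulatory light chain first known from smooth muscle and also used by non-muscle myosin, had 32253 reads, or 614 CPM (608 to 621). At 545 CPM per kilobase of transcript it was the highest of all 49 members on that scale. Per 1000 windows found in no other gene Myl6, at 571 CPM, stood above Myl9, at 562. That second scale divides all reads of a gene by its unshared windows. It thus assumes that no read from shared sequence was counted, which is not known. Myh11 (chromosome 16, 14194535 to 14291372), the smooth muscle heavy chain, had 1543 reads, or 29.4 CPM (27.9 to 30.9), and 4.49 CPM per kilobase. Per kilobase Myh9 was 87.0-fold (82.7 to 91.5) and Myh10 21.1-fold (20.0 to 22.2) above it. Of 9 other smooth muscle genes, 8 had at least 100 reads, against 54.6% of protein-coding genes. Acta2 (6360 CPM), Tagln (2185 CPM) and Cnn1 (250 CPM) had the most, while Myocd, the coactivator of the smooth muscle programme, had 9 reads.

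The regulatory light chains of non-muscle myosin differed between a pair of neighbouring genes. Myl12a (chromosome 17, 70993656 to 71002878) had 18593 reads, or 354 CPM (349 to 359), and Myl12b (chromosome 17, 70973133 to 70990890) had 1234 reads, or 23.5 CPM (22.2 to 24.9). Per kilobase Myl12a was 16.7-fold (15.7 to 17.7) above Myl12b, and Myl9 was 2.98-fold (2.93 to 3.03) above Myl12a. Myl9 held 61.9% of the reads of the 3 genes (61.5% to 62.3%). Their spliced coding sequences are shown because the levels rest on telling them apart. The first 120 bases from the start codon, from GENCODE transcripts on GRCm38, are given 5′ to 3′, with capitals where Myl12b or Myl9 differs from Myl12a:
Myl12a: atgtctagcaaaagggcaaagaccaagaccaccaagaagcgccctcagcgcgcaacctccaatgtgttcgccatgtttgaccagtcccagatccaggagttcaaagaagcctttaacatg
Myl12b: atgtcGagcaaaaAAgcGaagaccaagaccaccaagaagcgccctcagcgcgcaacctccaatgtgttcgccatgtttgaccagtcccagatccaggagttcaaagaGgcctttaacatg
Myl9: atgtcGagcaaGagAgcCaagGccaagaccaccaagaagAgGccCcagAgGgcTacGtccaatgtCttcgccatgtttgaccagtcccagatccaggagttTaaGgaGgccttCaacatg
Codons 19 and 20 (bases 55 to 60) encode the threonine and serine that myosin light chain kinase phosphorylates. In this stretch Myl12b differed from Myl12a at 5 bases and Myl9 at 17. Over the whole coding sequence of 516 bases, Myl12a and Myl12b differed at 18 bases (96.5% identity) and at 4 of 172 encoded residues, and Myl12a and Myl9 at 74 bases (85.7% identity) and 10 residues. Of the 35-base windows of the full transcripts, 31.0% of those of Myl12a, 15.9% of those of Myl12b and 0.0914% of those of Myl9 also occurred in another gene. A second gene model with the symbol Myl12b overlaps exons of both, over 23.9% of the Myl12a transcript and 34.5% of the Myl12b transcript. Its windows counted as another gene for Myl12a but not for Myl12b. The 15.9% is therefore a minimum and cannot be set beside the 31.0% of Myl12a. The sources used here do not say how the authors assigned shared reads, and the Myl12a and Myl12b levels are therefore uncertain.

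Of the essential light chains outside the sarcomere, Myl6 was the main gene. Myl6 (chromosome 10, 128490860 to 128494145) had 7042 reads, or 134 CPM (131 to 137), and Myl6b, which lies 11 bases from it on the same strand, had 104 reads, or 1.98 CPM (1.62 to 2.40). Myl6 held 98.5% (98.2% to 98.8%) of the reads of the pair, and per kilobase it was 104-fold (86.1 to 128) above Myl6b. The Myl6 transcript was the least distinct of the 49: 62.8% of its 35-base windows occurred in other genes, chiefly the processed pseudogenes Gm5526 (48.0%) and Gm10080 (46.9%).

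Summed per kilobase of transcript, the chains were of the same order. The 4 heavy chains outside the sarcomere (Myh9, Myh10, Myh14, Myh11) came to 489 CPM per kilobase, the 3 regulatory light chains to 739 and the 2 essential light chains to 204, which is 1.51 and 0.416 times the heavy chain sum. These ratios, and the order of the leading genes, depended on the length used. Per kilobase of coding sequence Myl9 (1191 CPM) and Myl12a (686 CPM) both stood above Myh9 (493 CPM). Per kilobase of coding sequence the regulatory chains came to 3.09 and the essential chains to 0.481 times the heavy chains. Per 1000 windows found in no other gene they came to 1.69 and 1.15 times, if no read from shared sequence was counted.

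**Figure D3:**
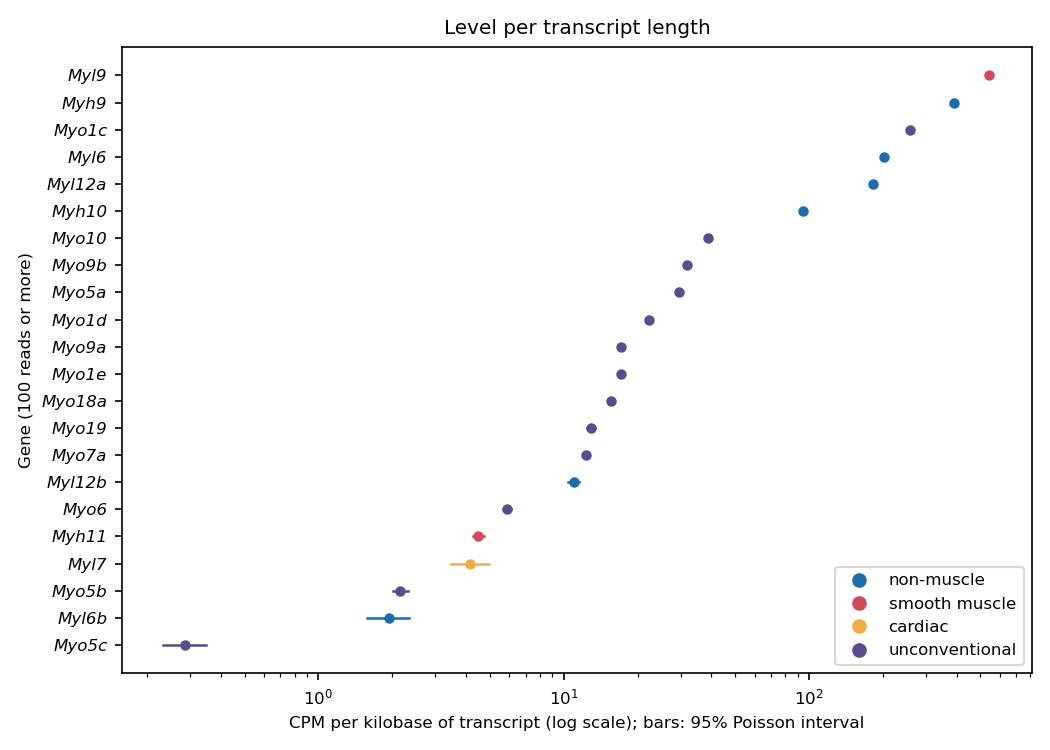
CPM per kilobase of transcript (log axis) of 22 of the 23 myosin genes with at least 100 reads, in descending order, with 95% Poisson intervals, coloured by class. Myl9 (545), Myh9 (390) and Myo1c (257) lead; adjacent intervals overlap for Myo9a and Myo1e, Myo19 and Myo7a, Myh11 and Myl7, and Myo5b and Myl6b.

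**Figure D4:**
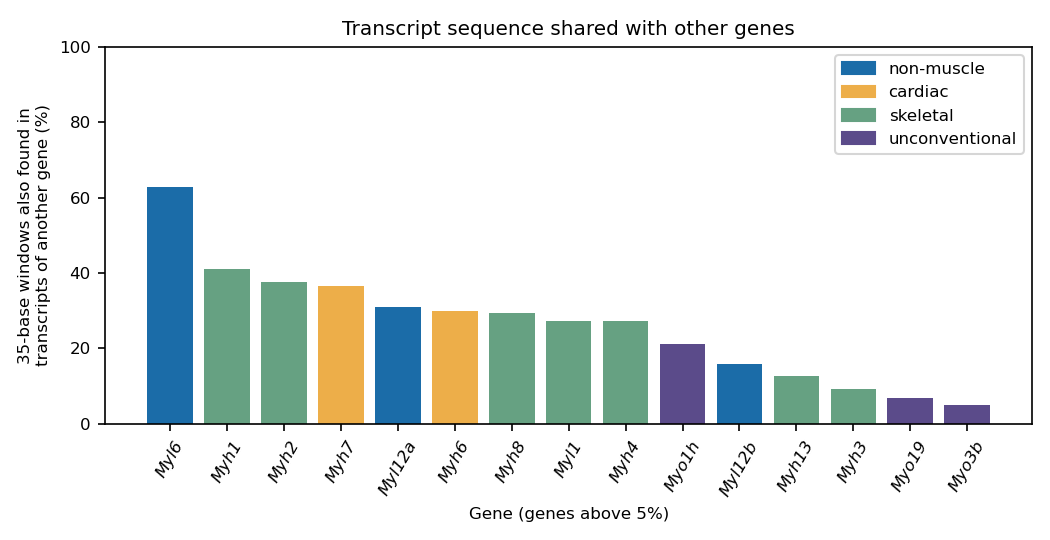
Percentage of 35-base windows of each transcript that also occur in a transcript of a gene with another symbol, on either strand, for the 15 members above 5%. The bar of Myl12b leaves out a second gene model of the same symbol. Myl6 leads at 62.8%, and Myh1 follows at 41.2%; 9 of the bars are cardiac or skeletal genes.

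By reads the sarcomeric myosins lay below the median protein-coding gene, most of them far below. The highest, Myl7 and Myl4, lay above 46.6% and 41.3% of protein-coding genes by reads, and above 57.1% and 45.8% per kilobase. The 15 cardiac and skeletal genes together had 250 reads, 0.0619% of the myosin reads (0.0545% to 0.0701%). Of them 4 had at least 10 reads, against 67.6% of protein-coding genes. The 10 sarcomeric heavy chains summed to 76 reads, against 192532 for the 4 others. The skeletal heavy chain cluster on chromosome 11 (67078300 to 67371586) holds Myh3, the embryonic chain (9 reads), Myh2, of fast IIA fibres (6), Myh1, of IIX fibres (8), Myh4, of IIB fibres (4), Myh8, the perinatal chain (5), and Myh13, the extraocular chain (7). Myh15 had 9 reads and Myl1, the fast alkali light chain, 1 read. The cluster genes share sequence to unequal extents: the windows found in another gene ranged from 9.20% for Myh3 and 12.7% for Myh13 to 37.6% for Myh2 and 41.2% for Myh1. Of the Myh1 windows 26.6% occurred in Myh2, and 6.28% in the antisense gene Myhas. Reads in that sequence cannot be assigned to 1 of these genes with certainty; the 6 genes of the cluster summed to 39 reads.

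Among cardiac myosins the atrial light chains stood above the rest. Myl7 (chromosome 11, 5896637 to 5898782), the atrial regulatory chain, had 129 reads, or 2.46 CPM (2.05 to 2.92), and Myl4, the atrial essential chain, had 40 reads, or 0.762 CPM (0.544 to 1.04). Both ventricular light chains, Myl2 and Myl3, had 2 reads. Per kilobase Myl7 stood at 4.17 CPM and Myl4 at 0.867, against 0.0576 for Myl2, the next of the sarcomeric genes. Myh6, the alpha heavy chain, and Myh7, the beta chain, which lie 3756 bases apart on chromosome 14, had 11 reads each, and Myh7b had 6. The interval of their ratio per kilobase ran from 0.395 to 2.55, so no difference between them was detectable at this depth. Of their windows, 29.9% of those of Myh6 and 29.8% of those of Myh7 occurred in the other gene, so reads there cannot be assigned to either with certainty, whatever the depth. Myl10, a regulatory light chain placed in no class here, had 1 read. Of 19 other sarcomere genes, 11 had at least 10 reads, against 67.6% of protein-coding genes. The highest were Actc1, the cardiac actin gene (6.74 CPM), Tnnt2, a troponin T gene (5.18 CPM), and Acta1, the skeletal actin gene (5.14 CPM). The muscle creatine kinase gene Ckm had 1 read, and the myogenic factor genes Myod1 and Myog had 2 and 3. Mylpf, the fast skeletal regulatory light chain, which the naming rule does not take in, had 15.

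Introns of 3 cardiac heavy chain genes hold microRNAs known as myomiRs, whose seeds (bases 2 to 8, in capitals) are shown because they form 1 related set. The mature sequences are from RefSeq, GRCm38.p6:
miR-208a-3p: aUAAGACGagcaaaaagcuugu
miR-208b-3p: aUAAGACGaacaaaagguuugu
miR-499-5p: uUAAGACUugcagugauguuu
Mir208a lies in Myh6 (hairpin at chromosome 14, 54949060 to 54949142, minus strand), Mir208b in Myh7 (chromosome 14, 54975700 to 54975776, minus strand) and Mir499 in Myh7b (chromosome 2, 155622880 to 155622958, plus strand), each on the strand of its host. The seeds of miR-208a-3p and miR-208b-3p are the same, and that of miR-499-5p differs from them at 1 base. The rows of all 3 microRNA genes were at 0 reads, a count that allows up to 3 reads, or 0.0571 CPM, as a one-sided limit; the two-sided Poisson interval used elsewhere reaches 0.0703 CPM. Their hosts had 11, 11 and 6 reads.

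Unconventional myosins were led by class I. Of the 24 Myo genes, 23 had at least 10 reads, as had 36 of all 49 members (73.5%) and 67.6% of protein-coding genes. At 100 reads the count was 14 of the 24, a share near the 54.6% of protein-coding genes. Of all 49 members 23 (46.9%) passed that minimum. The Myo genes took 151818 reads, 37.6% of the myosin reads (37.4% to 37.7%) and 24.8% after division by transcript length. Of heavy chain reads they held 44.1% (43.9% to 44.2%), and 68.6% without the leading gene on each side, Myh9 and Myo1c.

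Class I myosins are single-headed motors that link membranes to actin. Myo1c (chromosome 11, 75650504 to 75673910), which acts in membrane tension and vesicle delivery, had 63718 reads, or 1214 CPM (1204 to 1223), at rank 57 by reads among protein-coding genes. It held 83.0% of the class I reads. Myo1d had 6283 reads, or 120 CPM (117 to 123), and Myo1e, a motor of endocytosis and adhesion structures, 4150 reads, or 79.1 CPM (76.7 to 81.5). Per kilobase Myo1c was 11.5-fold (11.2 to 11.8) above Myo1d, and Myo1d 1.31-fold (1.26 to 1.36) above Myo1e. Several class I genes were scarce. Myo1a, of the intestinal brush border, had 67 reads, and Myo1f and Myo1g, known from leukocytes, had 13 and 11. The 8 leukocyte markers were low as well, from 3 reads (Cd3e) to 49 (Laptm5), with Coro1a at 46 and Ptprc at 26. Their median was 0.438 CPM, against 0.248 CPM for Myo1f and 0.210 CPM for Myo1g, and their part in these counts was not tested. Myo1h had 90 reads. On the opposite strand Kctd10, at 386 CPM, overlaps 1010 exonic bases of Myo1h, 21.8% of its transcript, and without a stated strand setting the reads of that stretch cannot be told apart.

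The cargo-carrying classes V, VI and XIX stood at different levels. Myo5a (chromosome 9, 75071015 to 75223688), the vesicle and melanosome motor, had 18171 reads, or 346 CPM (341 to 351), and 95.5% of the class V reads. Myo5b, the recycling endosome motor of epithelia, had 764 reads, or 14.6 CPM (13.5 to 15.6), and Myo5c, known from gland epithelia, which lies 8331 bases from Myo5a, had 101 reads, or 1.92 CPM (1.57 to 2.34). Per kilobase Myo5a was 13.7-fold (12.8 to 14.8) above Myo5b and 103-fold (85.1 to 127) above Myo5c. The epithelial markers lay between 17 reads (Grhl2) and 620 reads (Krt18), and their part in the Myo5b and Myo5c reads was not tested. Myo6 (chromosome 9, 80165031 to 80311729), which moves towards the pointed end of actin, had 2424 reads, or 46.2 CPM (44.4 to 48.1), and Myo19, the mitochondrial myosin, 2765 reads, or 52.7 CPM (50.7 to 54.7). Znhit3 and Pigw, with 600 and 674 reads, overlap exons of Myo19 on the other strand.

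A filopodial motor, the class IX genes and Myo18a were among the abundant members. Myo10 (chromosome 15, 25622525 to 25813673), the filopodial tip motor, had 16570 reads, or 316 CPM (311 to 320). At 38.8 CPM per kilobase of transcript it was the highest of the unconventional genes after Myo1c, with Myo5a at 29.6. This order depended on the length used: per kilobase of coding sequence Myo5a, at 62.3 CPM, stood above Myo10, at 51.0. Myo9b and Myo9a, motors that carry a GTPase-activating domain, had 12225 and 11017 reads, or 233 CPM (229 to 237) and 210 CPM (206 to 214). Per kilobase Myo9b was 1.86-fold (1.82 to 1.91) above Myo9a. Myo18a, a class XVIII chain that joins non-muscle myosin II filaments, had 6001 reads, or 114 CPM (111 to 117), whereas Myo18b, its muscle relative, had 48 reads; per kilobase the ratio was 142 (107 to 192).

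Among the motors of sensory and brush border protrusions grouped here, Myo7a stood well above the rest. Myo7a (chromosome 7, 98051060 to 98119524), a motor of inner ear hair cells and retina, had 4843 reads, or 92.3 CPM (89.7 to 94.9). Myo7b, of the brush border, had 18 reads; per kilobase Myo7a was 237-fold (150 to 401) above it. Myo15, of stereocilia tips, had 17 reads, Myo3b 97, Myo3a 3, and Myo16, a neuronal myosin, 18. Partner proteins of these motors had a median of 0.362 CPM over 12 genes. At least 10 reads were counted for 8 of them, a share near the 67.6% of all protein-coding genes, and 2 stood above the median of coding genes. Eps8, an actin capping and bundling protein, had the most reads, at 360 CPM, followed by Eps8l2 at 26.3 CPM and Cdh23, a cadherin of hair cell links, at 2.97 CPM, while Ush1c, the harmonin gene, had 1 read.

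Of the 28 regulators of myosin II phosphorylation 26 passed 10 reads, against 67.6% of all protein-coding genes, and 22 stood above the coding median (median of the list 58.2 CPM). Among the kinases Cdc42bpa, an MRCK kinase gene, had 486 CPM, Rock2 483 CPM and Rock1 113 CPM, while Mylk, the light chain kinase of smooth muscle and non-muscle cells, had 104 CPM. Its relatives Mylk2, Mylk3 and Mylk4 had 69, 20 and 7 reads. Upstream, Rhoa had 312 CPM, Rhob 218 CPM and Rhoc 87.1 CPM. On the opposing side Ppp1cb, the catalytic subunit of myosin phosphatase, had 303 CPM and Ppp1r12a, its myosin-targeting subunit, 170 CPM. Of the listed phosphatase inhibitor genes, Ppp1r14b had 34.4 CPM, Ppp1r14a 2.08 CPM and Ppp1r14c 1 read. Division by length changed this order. Per kilobase Rhoa stood at 142 CPM, Rhob at 92.9 and Rhoc at 90.8, above Rock2 at 63.2, Cdc42bpa at 53.1, Ppp1cb at 50.8 and Ppp1r12a at 49.9. Rock1, at 17.6 CPM per kilobase, and Mylk, at 13.3, were lower.

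Chaperones, shared light chains and adaptors completed the set. All 5 genes of the chaperone list passed 10 reads, as 67.6% of all protein-coding genes did, with Hsp90ab1 at 1721 CPM, Hsp90aa1 at 106 CPM, the general myosin chaperone gene Unc45a at 41.9 CPM and its striated muscle counterpart Unc45b at 11 reads. All 7 genes of the shared light chain list passed 10 reads, against 67.6% of all protein-coding genes (median of the list 114 CPM). Of the genes of calmodulin, which serves as light chain for most unconventional myosins, Calm3 had 300 CPM and Calm2 114 CPM, and Dynll1, a dynein light chain that also binds Myo5a, had 145 CPM. Of 15 cargo adaptor genes, 14 passed 10 reads, against the same 67.6%, and 13 stood above the coding median (median of the list 24.7 CPM). Dab2, a Myo6 adaptor of endocytosis, had 191 CPM, Tax1bp1, an autophagy adaptor of Myo6, 169 CPM, and Rab11fip2, which joins Myo5b to recycling endosomes, 103 CPM. The Myo5a adaptor gene of melanosomes, Mlph, had 34 reads, and Myrip, which links Myo7a and Myo5a to Rab27a, had 6.

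**Figure D5:**
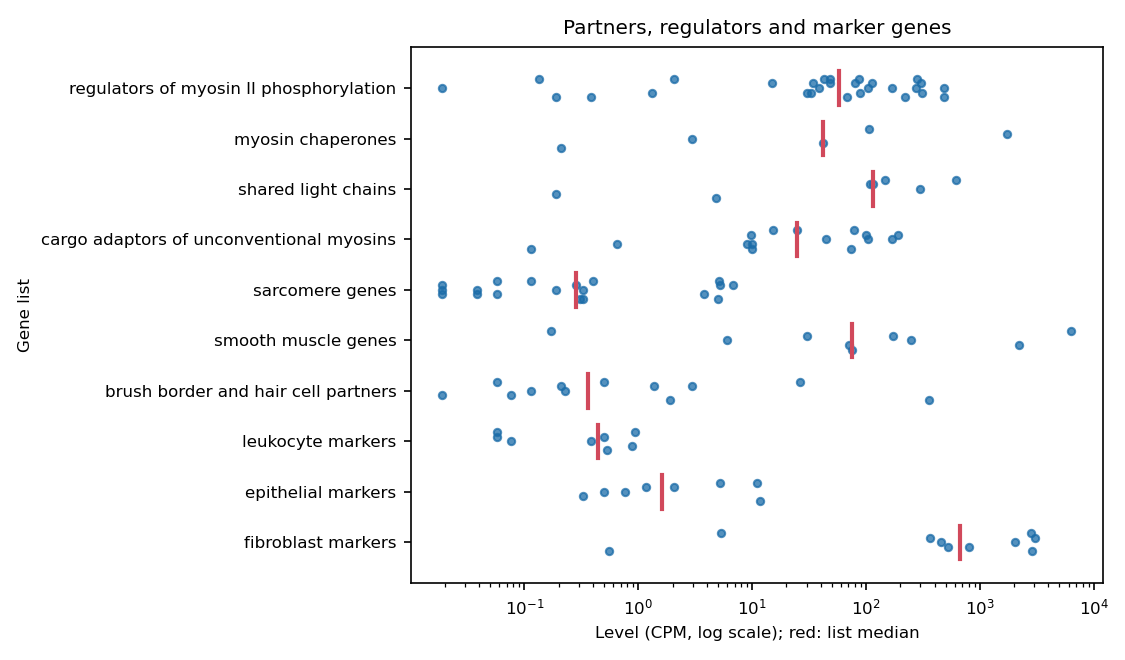
Level in CPM (log axis) of each gene (points) of 10 lists of partners, regulators and marker genes, with the list median (red). The regulators of myosin II phosphorylation have a median of 58.2 CPM and the fibroblast markers of 663 CPM, against 0.286 CPM for the sarcomere genes and 0.438 CPM for the leukocyte markers.

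Grouped by class and without division by length, non-muscle genes held 54.0% of the myosin reads (53.8% to 54.1%), unconventional genes 37.6% and smooth muscle genes 8.37%. After division by transcript length the shares were 46.2%, 24.8% and 28.7%. The smooth muscle share rested on Myl9, and with Myl9 counted as non-muscle the non-muscle share of reads was 62.0%. By position, 15 of the 49 genes lie on chromosome 11, among them Myh10 and Myo1c as well as the skeletal cluster, so that abundant and scarce members share that chromosome.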

How the data were processed

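Total RNA of 1 fibroblast culture was extracted with Trizol and sequenced as a SOLiD library, per the labels' protocols. The authors' deposited table gives a symbol, RefSeq accessions and 1 normalised signal per row (24214 rows). All 20976 values above 0 were whole multiples of 1.18, within 0.006 reads, so the signal was taken as read counts over a size factor of 0.850. DESeq and mm10 are named, without roles, in the submitters' processing notes. Aligner, counter, strand setting and annotation: not given in the sources used here. Rows differing only by a copy suffix were summed, which left 23386 genes, of which 20559 carry an NM accession and count as protein-coding.

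Transcript lengths, positions (1-based; GRCm38 is mm10) and sequences came from GENCODE M21. The longest transcript matched to the table's RefSeq accessions was used, for 48 of the 49 members; Myo16 took its longest coding transcript. Every 35-base window of these transcripts was searched, on both strands, in all GENCODE transcripts of genes with another symbol. The 35 is a setting, not the read length. With 1 library no test was run. Members, classes and lists were chosen with earlier results of these data known. Every member is named but 1, which is not reported here, as are a few list genes and 1 allele: those of 100 reads or more with reads, level and interval, the others by reads. Each list is given by its count with its most abundant genes, save those not reported, and those that bear on a member; other genes named were chosen after their values were seen. Recovery and intervals were tested on simulated data. Each simulated table was made to hold a count of 1 read, so that the step equals 1 read was assumed and not tested. Alternatives were other length divisions, read minimums, totals and group members. Software was matplotlib 3.10.9, scipy 1.17.1, pandas 2.3.3 and numpy 2.4.6 under Python 3.11.15.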

Additional observations from a re-analysis of the deposited data

How the results depend on the processing

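No paired analysis was possible because only 1 library was analysed here, and no replicate could be left out. The count of 36 myosin genes at 10 reads was 49 at 1 read and 26 at 50. Divided by union exonic length, transcript length and unique windows, the Myh9 share was 76.1%, 80.5% and 80.5%, the Myl9 share 82.3%, 73.8% and 66.5%, and the Myl6 share 97.5%, 99.1% and 99.6%. In the same order the non-muscle share of all myosin reads was 33.6%, 46.2% and 56.2%, and the unconventional share of heavy chain reads alone 54.3%, 49.2% and 48.9%. Divided by coding length, the Myl6 share was 98.9%, the non-muscle share 46.3% and the unconventional share of heavy chain reads 53.2%. The Myh9 share stayed within its counting interval there. The Myl9 share could not change under that division, because Myl9, Myl12a and Myl12b have the same coding length. With Myh11 added the Myh9 share was 79.1%, with Myl9 counted as non-muscle the non-muscle share was 62.0%, and without the leading gene of each side the unconventional share of heavy chain reads was 68.6%. The ratio of the member median to the coding median, 0.364, was 0.217 per kilobase of union exonic length and 1.23 over genes with at least 10 reads. A total without the 100 genes of most reads multiplied every level by 1.34, and a total of protein-coding genes by 1.09. Divisions by transcript length and by unique windows, and Myl9 as non-muscle, were chosen after seeing the data. Division by unique windows also assumes that no read from shared sequence was counted, which is not known. Depth limits the sarcomeric genes: at 10 reads or fewer the counting interval spans several-fold.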

Other observations

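Some rows that share the prefix but are not myosins were also read. Myof, the gene of the membrane repair protein myoferlin, had 48220 reads, or 919 CPM (910 to 927). Myom1, the gene of a sarcomere M-band protein, had 98 reads, or 1.87 CPM (1.52 to 2.28).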
